A study of Mus musculus with 2 samples.

Results

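The receptors that share the common gamma chain were examined in regulatory T (Treg) cells, a CD4 lineage set by Foxp3 that keeps immune responses in check. The set held 9 genes, chosen by symbol as the shared chain Il2rg, its 7 partner chains Il2ra, Il2rb, Il15ra, Il4ra, Il7r, Il9r and Il21r, and the kinase Jak3. All 9 were found among the 34745 gene rows of each count table. The cells were sorted as CD4-positive, YFP-positive cells from spleens of C57BL/6 mice aged 2 weeks. One group was poh1+/+ Foxp3Cre+ (1 library, called wild type) and the other poh1fl/fl Foxp3Cre+ (1 library, called knockout), so both carried the Cre allele, which acts in cells that express Foxp3. POH1 is encoded by Psmd14 and removes ubiquitin chains from proteins that enter the proteasome. The labels do not say how many mice gave each library.

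Library depth was 18124611 counts (wild type) and 14544212 counts (knockout). Each genotype had 1 library, so differences could not be set against a spread between replicates, and no p-value is given. Ranges in parentheses are exact 95% intervals of the counts, without any variation from mouse to mouse. The targeted gene, Psmd14, had 1619 and 463 counts, a 2.81-fold lower level in the knockout library (2.53 to 3.12) that goes with its label. All 5 of the Treg and T cell markers were present in both, with Foxp3 at 671 and 1073 CPM (counts divided by scaled library size) in wild type and knockout, the order kept for all pairs of values here. Cd3e was at 318 and 308, Cd3g at 368 and 289, Cd4 at 688 and 724 and Ikzf2, which encodes Helios, at 825 and 526 CPM. By the rule given below Foxp3 was higher, at 1.60-fold (1.56 to 1.64), and Ikzf2 lower, with a ratio of 0.637 (0.620 to 0.655). In bulk RNA, fewer cells of a type and less RNA per cell cannot be told apart.

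Each receptor of this family joins the shared gamma chain to 1 or more private chains that bind interleukin-2, interleukin-4, interleukin-7, interleukin-9, interleukin-15 or interleukin-21. The gamma chain carries JAK3, most partner chains carry JAK1, and the activated kinases phosphorylate STAT proteins, chiefly STAT5 for most of these cytokines, STAT6 for interleukin-4 and STAT3 for interleukin-21. Treg cells are known for constant display of the interleukin-2 receptor alpha chain, CD25, and depend on interleukin-2 made by other T cells. Conventional naive T cells are kept alive mainly through the interleukin-7 receptor.

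Of the 7 partner chains 4 differed between the libraries past the rule given next, while the shared chain and its kinase did not. Of the 9 genes, 8 had a ratio of knockout to wild type above 1, and 1, Il9r, was far below it. A gene was called higher or lower where its whole interval lay past 1.5-fold, since no test was possible. By this rule 3 of the 9 were higher in the knockout library (Il4ra, Il2rb and Il2ra) and 1 was lower (Il9r). The same rule called 9.58% of all 13464 measured genes (1 CPM or more in either library) higher and 12.3% lower. Among the 5047 genes at 50 CPM or more, where counting error is smaller, the shares were 9.63% and 9.65%. The median log2 ratio of the 9 genes was 0.47, against -0.01 over all measured genes, but their mean was 0.00 because of Il9r. All 9 genes passed the CPM filter. Together they took 0.400% of counts in wild type and 0.607% in knockout.

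**Figure D1:**
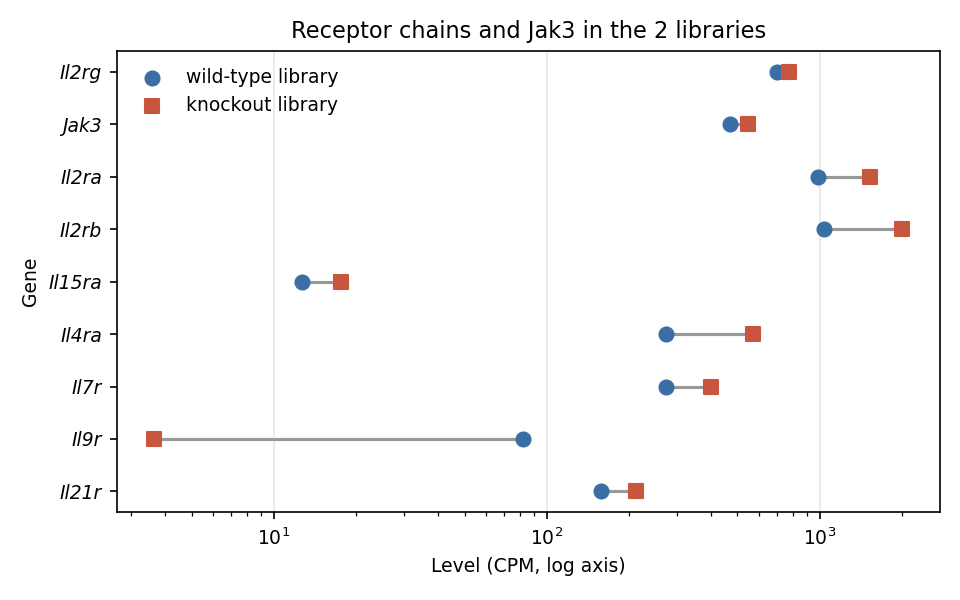
Level of each gene in the wild-type library (circles) and the knockout library (squares), in CPM on a log axis. The knockout point lies to the right for 8 genes and far to the left for Il9r, at 3.64 against 81.7 CPM.

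The regions before the start sites of 4 of these genes are shown. They lie next to the genes that differed most (Il4ra higher, Il9r lower), the alpha chain (Il2ra) and the shared chain (Il2rg). They are RefSeq sequences on GRCm38.p6, the build mm10, written 5′ to 3′ on the strand of the gene. Each holds the bases before the start, up to 250, that also lie before the gene in the GENCODE annotation. Capitals mark matches to a motif.
Il2rg, chrX:101268256-101268505, minus strand: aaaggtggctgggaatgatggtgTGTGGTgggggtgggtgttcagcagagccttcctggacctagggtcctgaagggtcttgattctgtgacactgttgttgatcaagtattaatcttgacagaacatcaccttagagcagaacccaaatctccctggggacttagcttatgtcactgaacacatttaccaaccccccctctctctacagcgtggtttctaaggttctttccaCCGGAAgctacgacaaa
Il2ra, chr2:11642542-11642791, plus strand: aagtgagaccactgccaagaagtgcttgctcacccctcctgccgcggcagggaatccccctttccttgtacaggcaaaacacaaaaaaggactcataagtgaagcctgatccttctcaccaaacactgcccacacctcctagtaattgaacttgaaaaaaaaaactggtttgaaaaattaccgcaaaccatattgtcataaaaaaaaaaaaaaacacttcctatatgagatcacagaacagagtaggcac
Il4ra, chr7:125552021-125552119, plus strand: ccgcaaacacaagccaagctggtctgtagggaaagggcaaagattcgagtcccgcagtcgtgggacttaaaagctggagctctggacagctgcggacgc
Il9r, chr11:32200280-32200529, minus strand: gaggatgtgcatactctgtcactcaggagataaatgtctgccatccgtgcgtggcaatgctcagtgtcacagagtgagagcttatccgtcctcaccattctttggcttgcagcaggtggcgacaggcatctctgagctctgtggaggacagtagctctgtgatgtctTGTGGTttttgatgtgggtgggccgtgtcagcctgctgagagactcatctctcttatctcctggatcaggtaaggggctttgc
The motifs searched on both strands were the STAT site TTCNNNGAA, the RUNX site TGTGGT, the FOXO site GTAAACA and the ETS form CCGGAA. Over the 250 bases before the start in 32851 RefSeq windows they were present in 7.02%, 14.0%, 3.17% and 12.0%, in that order. Windows were found for 8 of the 9 genes. Il2rg held a RUNX match 227 bases and an ETS match 17 bases before its start, and Il9r held a RUNX match 83 bases before its start. Il2ra, Il4ra and Jak3 held none of the motifs in their windows. A STAT match, TTCAGGGAA, was found 142 bases before the RefSeq start of Il7r, inside the gene as GENCODE draws it. Il21r held overlapping FOXO and RUNX matches, the farther one 38 bases before its start, and Il15ra held an ETS match 104 bases before the first of its starts. A match is a description of the letters and not a binding site.

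The shared chain and its kinase were close to equal in the libraries. Il2rg (chromosome X, 101264378 to 101268255, minus strand, mm10) had 12696 and 11274 counts in wild type and knockout. On the CPM scale its level was 701 and 775, a ratio of 1.11 (1.08 to 1.13). Exons of Il2rg overlap those of the predicted gene Gm20489 over 30.5% of their length, and Gm20489 itself had 0 and 1 counts. Jak3 (chromosome 8, 71676296 to 71690575, plus strand), the kinase that binds the gamma chain's tail, had 8526 and 7979 counts, or 471 and 548 CPM. Its ratio was 1.17 (1.13 to 1.20), and relative to Il2rg it was 1.05 (1.01 to 1.10 by a Wald interval on the 4 counts). Jak3 shares 7.55% of its exon length with Insl3, which had 90 and 128 counts. Both ratios lay within the quartiles of all measured genes, log2 values of -0.44 and 0.39.

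The chains of the interleukin-2 receptor were the most abundant partner chains and were higher in the knockout library. Il2rb (chromosome 15, 78479256 to 78495271, minus strand), the beta chain that signals for interleukin-2 and interleukin-15, had 18787 and 29249 counts. That was 1037 CPM in wild type against 2010 CPM in knockout, a 1.94-fold higher level (1.90 to 1.97), and 1272 of the 13464 measured genes had a larger log2 ratio. Il2ra (chromosome 2, 11642807 to 11693193, plus strand), which encodes CD25 and raises the affinity for interleukin-2, had 17935 and 22259 counts, or 990 and 1530 CPM. It was 1.55-fold higher (1.52 to 1.58). That interval starts just past the rule, and with totals that leave out mitochondrially encoded genes it began at 1.496, short of the rule. Of the 2 chains Il2rb differed more, by a factor of 1.25 relative to Il2ra (1.22 to 1.29), a comparison in which the scaling of the libraries cancels.

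The beta chain is also borne by NK cells and memory CD8 T cells, and their markers are given beside it. The NK cell markers Ncr1 and Klre1 had at most 2 counts in a library, and the 4 NK markers summed to 2.70 and 9.21 CPM, most of the latter from Eomes. Eomes had 28 and 122 counts and was higher by the rule, and Klrb1c had 19 and 12 counts and did not pass. The 2 CD8 markers, Cd8a and Cd8b1, summed to 18.8 and 47.4 CPM. Both were higher by the rule, which called 9.58% of all measured genes higher. The part of the NK and CD8 markers in the difference of Il2rb was not tested.

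Il15ra (chromosome 2, 11705290 to 11734317, plus strand), which presents interleukin-15 to the beta and gamma chains, was the least abundant chain in the wild-type library. It had 230 and 256 counts, or 12.7 and 17.6 CPM, a ratio of 1.39 (1.16 to 1.66). That interval spans 1.5-fold, so the gene was called neither higher nor lower. Relative to Il2rb, with which it forms the interleukin-15 receptor, its level was lower in the knockout library by a factor of 0.715 (0.598 to 0.855).

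Il4ra had the largest ratio of the family. This gene (chromosome 7, 125552120 to 125579474, plus strand) encodes the chain that binds interleukin-4 and, with IL-13R alpha 1, interleukin-13. Its counts were 4957 and 8277, or 274 and 569 CPM, and was 2.08-fold higher (2.01 to 2.15). It was the sole member whose interval lay wholly above 2-fold, where 4.34% of all measured genes lay above and 6.63% below. That interval began just under 2-fold with DESeq2 size factors (1.998), with totals that leave out mitochondrially encoded genes (1.98) and at 99% confidence (1.99). Exons of Il4ra overlap those of the predicted gene Gm44876 over 9.51% of their length. Its neighbour on chromosome 7, Il21r, was less different, and the ratio of Il4ra relative to Il21r was 1.54 (1.45 to 1.64). Il13ra1, the partner of Il4ra outside the gamma chain complexes, had 61 and 28 counts, a ratio of 0.572 (0.352 to 0.908).

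Il21r and Il7r were above 1 without passing the rule. Il21r (chromosome 7, 125603429 to 125633570, plus strand), the receptor of a cytokine of follicular helper T cells, had 2859 and 3094 counts, or 158 and 213 CPM. Its ratio was 1.35 (1.28 to 1.42). Il7r (chromosome 15, 9505788 to 9530176, minus strand), known for its high level on naive and memory T cells and its low level on most Treg cells, had 4951 and 5841 counts, or 273 and 401 CPM. Its ratio was 1.47 (1.41 to 1.53), with the interval on both sides of 1.5-fold. Crlf2, which pairs with Il7r to form the TSLP receptor, was at 56.6 and 43.2 CPM, a ratio of 0.763 (0.690 to 0.844).

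B cells express Il4ra and Il21r, so their markers are given beside them. All 6 of the B cell markers were lower by the rule, and they had a summed level of 135 CPM (wild type) and 36.4 CPM (knockout). Of 5 monocyte and macrophage markers 1 was higher by the rule and 0 lower, and they summed to 156 and 203 CPM. The 1 was Csf1r, at 52.9 and 92.1 CPM, 1.74-fold higher (1.60 to 1.89). The part of the B cell and macrophage markers in the values of Il4ra, Il15ra and Il21r was not tested. Among markers of naive or central T cells, which include cells rich in Il7r, 4 of 7 were higher and 0 lower. They summed to 2858 and 4677 CPM. Klf2, the most abundant, was at 671 and 971 CPM and did not pass the rule. The lymphoid homing receptor gene Ccr7, with the largest ratio of the 7, was at 276 and 704 CPM. The part of these 7 markers in the ratio of Il7r was not tested. The rule called 9.58% of all measured genes higher and 12.3% lower. Of 6 transcription factors that act on Il7r it called 0 in either direction, too few genes to differ from those shares. The 6 included Foxo1, an activator of Il7r, at 425 and 386 CPM. Gfi1, a repressor, was at 25.9 and 39.2 CPM, a ratio of 1.52 (1.34 to 1.72). Klf2 and Ets1 had ratios of 1.45 (1.41 to 1.48) and 1.37 (1.35 to 1.40).

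Il9r was nearly lost from the knockout library. This gene (chromosome 11, 32187541 to 32200279, minus strand) encodes the private chain for interleukin-9, a cytokine that acts on mast cells and on subsets of lymphocytes. Its counts were 1481 (wild type) and 53 (knockout). On the CPM scale it was at 81.7 and 3.64, 22.4-fold lower in the knockout library (17.1 to 30.1), which leaves 4.46% of the wild-type level. Only 100 of the 13464 measured genes had a lower log2 ratio than its -4.48. None of its exons overlap those of another annotated gene.

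Effector Treg markers moved with Il9r. Of 11 such markers 10 were lower by the rule and 0 higher, where it called 12.3% and 9.58% of all measured genes. The 11 had a summed level of 2103 CPM (wild type) and 505 CPM (knockout). The genes closest to Il9r in level in both libraries, by distance in log2 CPM over the 2 libraries, were Il10 (75.2 and 4.06 CPM), which encodes a suppressive cytokine, and S100a4 (72.0 and 4.61 CPM), a calcium-binding protein gene. Il10 is itself among the 11 markers, so it is no further gene beside them. Of 5 mast cell and basophil markers, Fcer1a and Ms4a2 had 0 counts in each, Mcpt8 had 4 and 0, and the most abundant was Kit at 9.16 and 5.36 CPM. The 5 summed to 9.71 and 5.50 CPM. The part of the effector Treg and mast cell markers in the difference of Il9r was not tested.

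**Figure D2:**
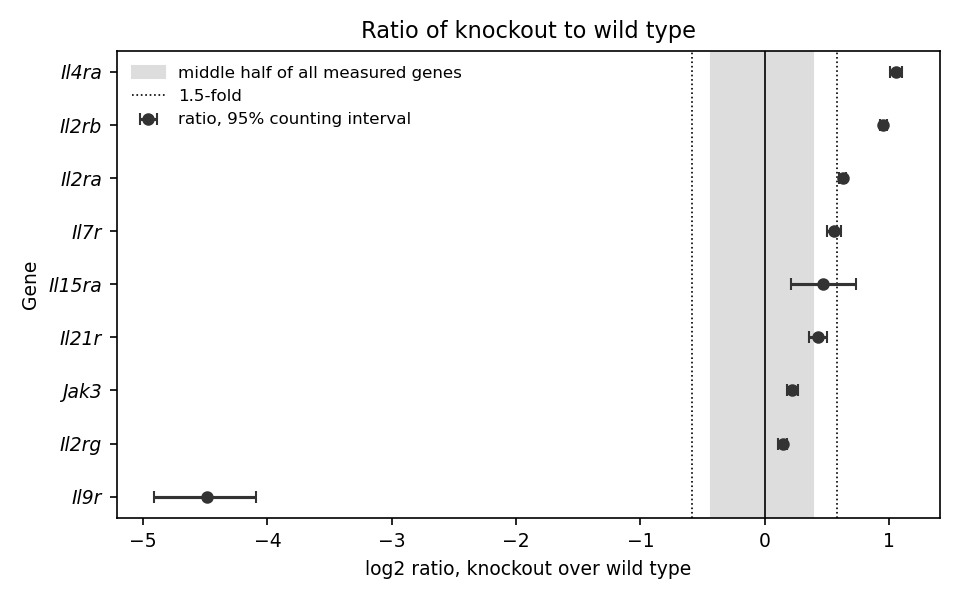
Log2 ratio of knockout to wild type for each gene (points) with its 95% counting interval (bars), sorted by ratio. The grey band spans the quartiles of all 13464 measured genes, from -0.44 to 0.39, and the dotted lines mark 1.5-fold. Il4ra, Il2rb and Il2ra lie beyond the right line, and Il9r lies beyond the left line.

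For the other members past the rule, the genes nearest in level over the 2 libraries were as follows. For Il2rb they were Samhd1 (993 and 2131 CPM), an antiviral nucleotide hydrolase gene, and Shisa5 (1175 and 1788 CPM). For Il2ra they were Akap13 (973 and 1358 CPM) and Dgka (997 and 1338 CPM), a diacylglycerol kinase gene. For Il4ra they were Tap2 (267 and 587 CPM), a subunit of the peptide transporter of antigen presentation, and Stat3 (288 and 554 CPM). With 2 libraries such nearness describes 2 levels and nothing more.

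Levels of different genes can be compared only per length, on the authors' FPKM scale (fragments scaled by the length of the gene model and the library total). In the wild-type library the order was Il2rb at 284 FPKM, Il2rg at 193, Il2ra at 167, Il7r at 85.2, Jak3 at 60.02, Il21r at 31.0, Il4ra at 29.9, Il9r at 8.995 and Il15ra at 1.04 FPKM. Counting intervals of Il21r (29.9 to 32.2) and Il4ra (29.04 to 30.7) overlapped, so this pair is not ordered. In the knockout library the order was Il2rb at 552 FPKM, Il2ra at 258, Il2rg at 213, Il7r at 125, Jak3 at 70.0, Il4ra at 62.1, Il21r at 41.8, Il15ra at 1.44 and Il9r at 0.401 FPKM. On this scale the alpha chain thus passed the shared chain, and Il9r went from place 8 to place 9. Il4ra was above Il21r in knockout, while the 2 were not ordered in wild type. Il2rb ranked 84 among all gene rows in wild type and 49 in knockout.

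The order depends on the length used. The lengths behind the deposited FPKM values were 12214 bases for Il15ra, 9084 for Il9r and 3208 for Il7r, while the annotated exons of these genes cover 4446, 4947 and 4663 bases in GENCODE M21. With the longest coding transcript as the length, Il2rg came first in the wild-type library and second to Il2rb in the knockout library. Il2ra then stayed below Il2rg in both, at 224 against 419 in wild type and 347 against 464 in knockout. On that scale Il9r was at 18.2 and 0.813 and Il15ra at 6.55 and 9.09 on the same units as FPKM, so Il9r was again above Il15ra in wild type and below it in knockout.

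The mix of partner chains leaned further to the beta chain in the knockout library. The 7 partner chains had a summed level of 607 and 1041 FPKM, against 193 and 213 FPKM of the shared chain. The sum was thus 3.15 times the shared chain in wild type and 4.88 times in knockout. With the longest coding transcript as the length these values were 1.64 and 2.46. Il2rb held 46.8% and 53.01% of the partner FPKM in wild type and knockout, and Il2ra held 27.5% and 24.8%. Il7r went from 14.02% to 12.02%, Il21r from 5.10% to 4.02% and Il4ra from 4.92% to 5.97%. Il9r went from 1.48% to 0.0385%, and Il15ra was at 0.171% and 0.138%. The shares of Il2ra, Il7r and Il21r were smaller in the knockout library although their own levels were higher.

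**Figure D3:**
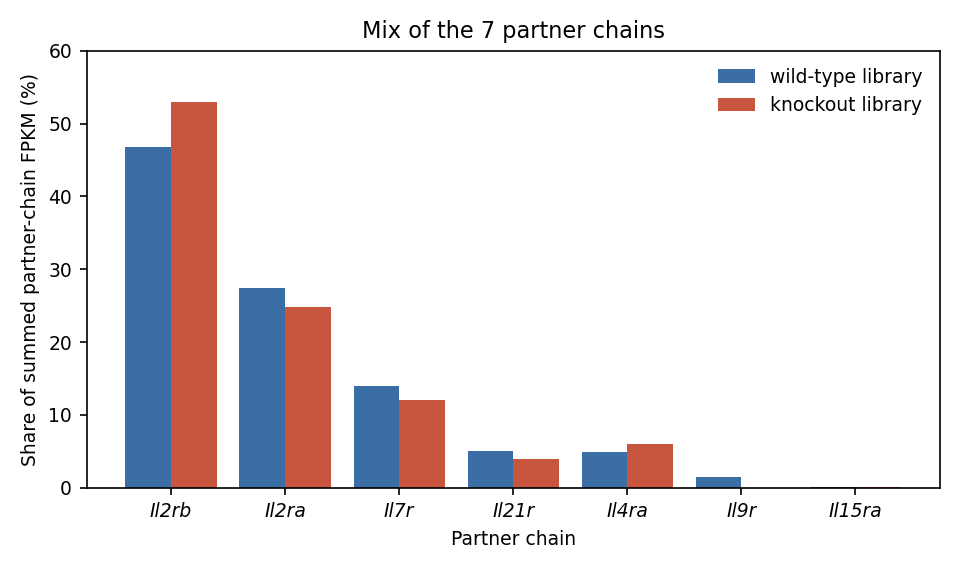
Share of the summed FPKM of the 7 partner chains held by each chain in the wild-type (blue) and knockout (red) libraries, in percent. Il2rb went from 46.8% to 53.01% and Il9r from 1.48% to 0.0385%, and the bars have no error because there is 1 library per genotype.

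The ratio of knockout to wild type of each chain was also divided by that of the shared chain, so that scaling cancelled. By this measure Il4ra was at 1.88 (1.80 to 1.96) and Il2rb at 1.75 (1.70 to 1.81). Il2ra was at 1.40 (1.35 to 1.44), Il7r at 1.33 (1.27 to 1.39), Il15ra at 1.25 (1.05 to 1.5004) and Il21r at 1.22 (1.15 to 1.29). Every partner chain but Il9r, which was at 0.0403 (0.0306 to 0.0531), therefore had a larger ratio than the gamma chain. These values compare ratios and not levels.

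The cytokines of the family, and Il13 and Tslp that share a partner chain with it, were scarce in both libraries. Il2 had 0 and 3 counts, Il7 had 0 and 5, Il15 had 11 and 2, and Il9 and Tslp had 0 in each. A count of 0 allows up to 3 counts, or 0.166 CPM (wild type) and 0.206 CPM (knockout). Il4, a T helper 2 cytokine gene, had 26 and 6 counts, and Il21 had 11 and 22. Il13, whose receptor pairs Il4ra with Il13ra1 in place of the gamma chain, had 6 and 22 counts. It was the sole one of the 8 genes past the rule, 4.57-fold higher (1.80 to 13.8). Of the 8 cytokine genes, 3 reached 1 CPM in a library.

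Downstream of the receptors, 2 STAT genes were higher and the other kinase was not. Of 5 kinase and STAT genes other than Jak3, 2 were higher by the rule and 0 lower, with a median log2 ratio of 0.61. The rule called 9.58% of all measured genes higher and 12.3% lower. Jak1, the kinase of the partner chains, was at 796 and 713 CPM, a ratio of 0.896 (0.873 to 0.919). Stat5a was at 151 and 270 CPM, 1.79-fold higher (1.70 to 1.88). Its close copy Stat5b was at 346 and 526 CPM, a ratio of 1.52 (1.47 to 1.57) that did not pass. Stat3, which serves interleukin-21, was at 288 and 554 CPM, 1.92-fold higher (1.86 to 1.99). Stat6, which serves interleukin-4, was at 310 and 359 CPM, a ratio of 1.16 (1.12 to 1.20). Of 9 adaptor and phosphoinositide 3-kinase genes, 8 were measured and 0 passed in either direction, too few genes to differ from the shares over all measured genes. Their median of 0.01 had no steady sign under other scalings. Grb2 was at 246 and 187 CPM, and Sos1 at 67.1 and 100.01 CPM.

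Cytokine-induced inhibitors of the pathway were higher in the knockout library. The rule called 4 of 9 feedback genes higher and 0 lower, against 9.58% and 12.3% of all measured genes. The median log2 ratio of the 9 was 0.59, against -0.01 over all measured genes. The 4 were Cish and the 3 Socs genes listed. Socs1, which blocks JAK kinases, had 601 and 1801 counts and was 3.73-fold higher (3.40 to 4.10). Socs3 was 3.44-fold (3.28 to 3.59), Cish, a feedback inhibitor induced by STAT5, 2.68-fold (2.55 to 2.82) and Socs2 1.68-fold higher (1.57 to 1.80). The phosphatase genes Ptpn2 and Ptpn6 had ratios of 0.956 (0.882 to 1.03) and 0.853 (0.813 to 0.895), and Sh2b3, an adaptor that restrains JAK signalling, 0.661 (0.602 to 0.726). The ubiquitin ligase genes Cbl and Cblb had ratios of 0.839 (0.812 to 0.866) and 1.504 (1.43 to 1.58), and none of these 5 genes passed the rule.

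Genes known as STAT5 targets were mostly but not uniformly higher. Of 15, 9 were higher and 2 lower by the rule, against 9.58% and 12.3% of all measured genes. The median log2 ratio of the 15 was 0.75. The list shares Cish, Socs1 and Socs2 with the feedback list, and several of its genes answer to other signals as well. Among survival genes, Bcl2 was 2.16-fold (2.08 to 2.24) and Mcl1 1.60-fold higher (1.57 to 1.64), whereas Bcl2l1, which encodes BCL-XL, was 1.94-fold lower (1.68 to 2.25). The cytokine genes Osm and Lta were 2.77-fold (2.41 to 3.17) and 2.45-fold higher (2.25 to 2.68), and Ccnd2, a G1 cyclin gene, was 1.83-fold higher (1.78 to 1.87). Of the cytotoxic genes, Prf1 had 36 and 151 counts, 5.22-fold higher (3.61 to 7.74), and Gzmb was 2.87-fold lower (2.65 to 3.11). The kinase gene Pim1 was at 1195 and 1241 CPM, and Myc had a ratio of 1.27 (1.19 to 1.36).

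Other cytokine receptor chains gave a setting for the family. Of 16 measured class I chains outside it, 3 were higher and 1 lower, where the rule called 9.58% and 12.3% of all measured genes. The median log2 ratio of the 16 was 0.18. Il12rb2 had 25 and 417 counts, 20.8-fold higher (13.9 to 32.5), a larger ratio than any in the family. Il12rb1 was 1.65-fold higher (1.53 to 1.78), and Prlr, with 10 and 44 counts, 5.48-fold (2.72 to 12.2). The 1 lower was Epor, the erythropoietin receptor gene, with 56 and 10 counts. Erythroid markers were lower too, 5 of 5 by the rule, at 55.6 and 15.4 CPM in sum. Of 7 measured class II chains, 1 was higher, Ifngr2 at 2.12-fold (1.95 to 2.31), and 0 lower, with a median of 0.40. Il6ra, the most abundant class I chain outside the family, was at 376 and 418 CPM, below Il2rb, Il2ra and Il2rg in both libraries on this scale, which is not corrected for length. Per length the most abundant of them was Il27ra, at 95.6 and 95.3 FPKM, and Il6ra was at 34.3 and 38.1 FPKM.

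**Figure D4:**
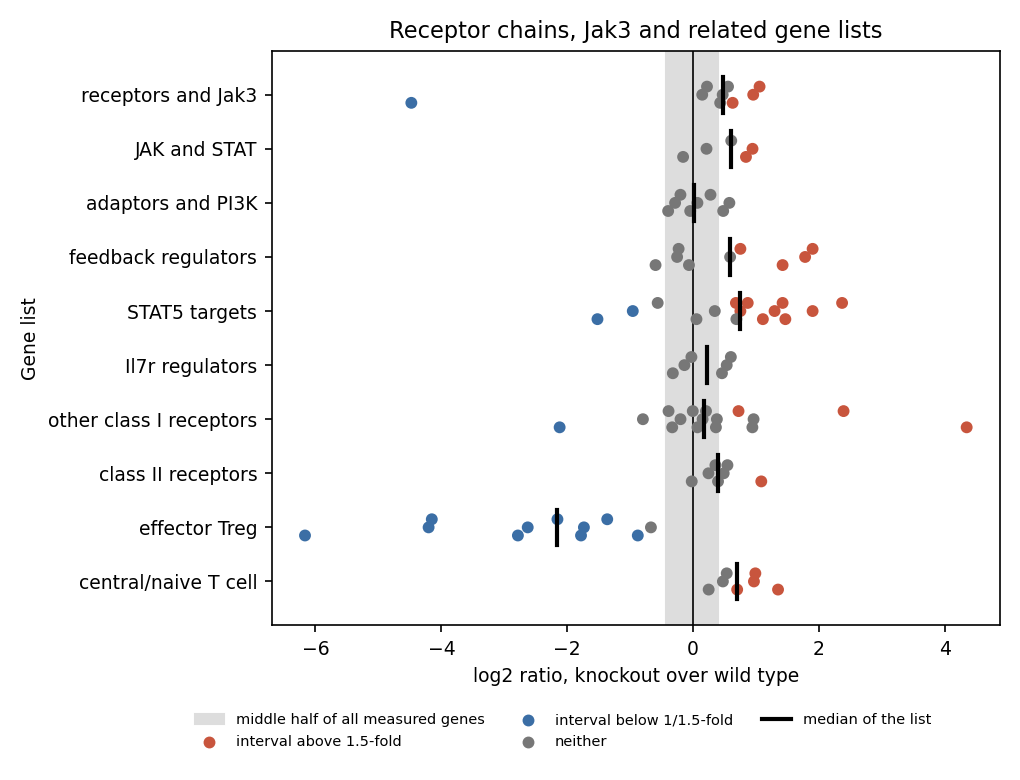
Log2 ratio of knockout to wild type for each measured gene (points) of the receptor family and of related lists, with each list's median (black bar). Red and blue mark genes whose counting interval lay wholly above or below 1.5-fold, and the grey band spans the quartiles of all measured genes. The effector Treg list lies to the left with Il9r, and the median of the receptor family, 0.47, lies just right of the band.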

How the data were processed

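RNA was measured by sequencing in 1 wild-type and 1 knockout library of sorted splenic Treg cells, made with the Illumina TruSeq RNA v2 kit, per the labels' protocols. That kit does not mark strand. TopHat and HTSeq were used with mm10, per the submitters' processing notes, while versions, annotation and multi-mapped reads are not described there. The authors deposited whole-number counts and FPKM values per gene name. Counts per FPKM differed between the libraries by 1 factor, 0.802 in each of 11848 genes, so FPKM served only to compare genes per length.

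Counts were scaled with TMM factors from edgeR 4.0.16 (R 4.3.3). Intervals of ratios are exact Clopper-Pearson 95% intervals of the knockout share of a gene's summed counts, and a log2 ratio has 0.5 counts added in proportion to library size. Ratios relative to another gene have a 95% Wald interval on the log odds. No p-value was computed. Genes at 1 CPM in at least 1 library were measured, and a gene was called where its interval lay wholly beyond 1.5-fold. For symbols that occur more than once (126 rows, none of them a receptor gene or Jak3) the most counted row was used. Reads carry no molecular identifiers, so intervals and the floor of 3 counts cover counting error only. Alternatives were 4 other scalings (DESeq2 1.42.0 for 1 of them), 2-fold, 99% intervals, no CPM filter, FPKM ratios, shares of counts and, chosen after seeing the data, another gene length and the background at 50 CPM. The calculation was tested on simulated counts that held counting error only, so that test does not cover variation from mouse to mouse.

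The genes, lists and rules were chosen with earlier results of these data known. Named genes were the 9 genes, Psmd14, list genes past the rule or at a list's ends, the most abundant gene of a marker list and the 2 nearest genes of each called member. Others (Foxo1, Stat6, Jak1, Ptpn2, Ptpn6, Myc, Pim1 and Il7, for example) were named for their known roles after their values were seen. The kinase and STAT list held 1 further gene when it was drawn up, which is not reported here. Coordinates come from GENCODE M21 (mm10) by symbol. Python 3.11.15 with scipy 1.17.1 was used.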

Additional observations from a re-analysis of the deposited data

How the results depend on the processing

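Under the 4 other scalings the 9 ratios kept their sides of 1, and they moved by at most 0.04 on the log2 scale. The number of genes called lower was 1 (Il9r) under every alternative run. The number called higher was 3 under 3 scalings and with the 99% interval. Dropping the CPM filter could not change either number, because all 9 genes passed it. The number called higher was 2 where mitochondrially encoded genes were left out of the totals, since the interval of Il2ra then ran from 1.496 to 1.56. With 2-fold in place of 1.5-fold it was 1, Il4ra, because a wider bound is harder to pass, and its interval began at 1.998 with DESeq2 size factors, 1.98 without mitochondrially encoded genes and 1.99 at 99% confidence. The ratio of Il4ra ranged from 2.05 to 2.14, that of Il2rb from 1.91 to 1.99 and that of Il9r from 0.0440 to 0.0458. The shares of the partner chains in the knockout library depended on the length used. With the longest coding transcript Il2rb held 41.9%, Il2ra 30.3%, Il7r 9.92%, Il4ra 9.47%, Il21r 7.45%, Il15ra 0.795% and Il9r 0.0711%, and by counts Il2rb held 42.4% and Il2ra 32.2%. List counts stayed within 1 gene of those reported. No paired analysis was possible because each genotype has 1 library, and no replicate could be left out. Depth limits Il15ra, with 230 and 256 counts, and the cytokine genes.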
